A study of Homo sapiens with 18 samples.

Results

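BACH1, BACH2, MAFF, MAFG, MAFK, NFE2L1, NFE2L2 and KEAP1 are the genes of the BACH and NRF transcription factors, their small MAF partners and the NRF2 inhibitor KEAP1. These 8 genes were chosen by symbol, and the set was proposed with the knockdown against scrambled changes of the same libraries already known, so their values in that contrast are given as a description with no test. They are 8 of the 27781 genes in the count table, and all 8 were among the 15678 genes with enough counts to be tested. K562 is a BCR-ABL1 positive human line from a chronic myeloid leukaemia with erythroid and megakaryocytic features. The knockdown cells received antisense gapmers, which are DNA-centred oligonucleotides that direct RNase H to an RNA, aimed at the backsplice junction of the circular RNA circPCMTD1. The scrambled control cells received gapmers of scrambled sequence. The sample descriptions call the oligonucleotides siRNA. Both groups were grown in the same serum-supplemented medium and collected 48 hours after transfection, and each comprised 3 biological replicates with 3 technical libraries each. The study asked how the transcriptome of these cells differs when circPCMTD1 is depleted.

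The CNC factors BACH1, BACH2, NFE2L1 and NFE2L2 bind DNA only as pairs with a small MAF protein, at antioxidant response elements and the related MAF recognition elements. BACH1 and BACH2 repress from these elements and are released by haem, while NRF2, the product of NFE2L2, activates antioxidant genes there once it escapes KEAP1, the adaptor that hands it to the CUL3 ubiquitin ligase. In erythroid cells the same elements lie in the globin locus control regions and at haem and iron genes. NFE2L1 encodes the factor also known as NRF1, an activator of proteasome genes, which is distinct from the nuclear respiratory factor gene of that symbol.

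BACH2 was, per transcript length, the least abundant CNC factor of the set and the gene with the largest difference between the groups. BACH2 represses plasma cell and effector programmes in B and T lymphocytes. It lies on chromosome 6 (ENSG00000112182, GRCh38 chr6:89926529-90296908, minus strand). In CPM, a count scaled by library size and composition, BACH2 stood at 6.88, 7.28 and 6.47 in knockdown replicates 1, 2 and 3, against 9.18, 9.51 and 10.4 in scrambled replicates 1, 2 and 3. Every knockdown replicate lay below every scrambled replicate. BACH2 averaged 6.88 ± 0.405 CPM in knockdown cells and 9.70 ± 0.633 CPM in scrambled cells (SD, n = 3 each), 29.1% lower, with a log2 fold change of -0.495 ± 0.066 (SE). These levels rested on 482, 466 and 419 counts in the knockdown replicates and 694, 671 and 700 counts in the scrambled replicates. BACH2 was called lower in knockdown cells in the edgeR fit across all genes at an adjusted p below 0.05. Over all tested genes that call was made for 18.6%, with 7.49% lower and 11.1% higher, and nothing is read from these shares because the set was proposed from this contrast. In bulk RNA, fewer cells that carry a transcript and less of it per cell cannot be told apart.

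The technical libraries are the parts of the summed replicates and add no separate evidence on BACH2. Its 9 knockdown libraries held between 5.86 and 7.71 CPM with a median of 6.96, against 8.54 to 11.2 CPM with a median of 9.71 in the 9 scrambled libraries. Among the 8 genes, 1 had all knockdown libraries below all scrambled libraries, and this was BACH2. The 2 library ranges of each other gene overlapped. The share of all tested genes whose libraries separate in this way was not computed, so nothing is read from this count.

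The promoter of BACH2 is shown because it belongs to the gene with the largest difference of the set. The window runs from 250 bases before the RefSeq transcription start to 50 bases after it (GRCh38.p14, chr6:90296794-90297093, minus strand). Capitals mark a match to TGACGTCA, the palindromic cAMP response element bound by ATF and CREB factors, which begins 82 bases before the start.
BACH2 promoter: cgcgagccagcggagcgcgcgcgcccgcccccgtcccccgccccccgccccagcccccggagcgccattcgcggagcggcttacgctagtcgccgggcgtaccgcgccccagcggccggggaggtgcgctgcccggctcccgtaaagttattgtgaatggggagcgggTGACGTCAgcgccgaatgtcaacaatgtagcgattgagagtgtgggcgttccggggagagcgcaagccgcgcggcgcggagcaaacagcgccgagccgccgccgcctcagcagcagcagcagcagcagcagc
The window had a GC content of 73.3% and 45 CpG dinucleotides, against medians of 58.67% and 14 over 35116 RefSeq promoter windows of 300 bases. It held no match, on either strand, to TGACNNNGC, the core of the antioxidant response element. Nor did it match TGACTCA, the core shared by AP-1 sites and a type of MAF recognition element. TGACNNNGC and TGACTCA were found in 13.347% and 4.949% of all windows. Full-length MAF recognition elements were not searched for, so the window is not shown to lack one. TGACGTCA was found in 1.848% of all windows, and was added to the search after the windows had been seen. A match is a description of the letters and not a site in use.

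BACH1, the broadly expressed relative that represses HMOX1 and globin genes, was more abundant per transcript length. It lies on chromosome 21 (ENSG00000156273, chr21:29194071-29630751, plus strand). BACH1 stood at 123, 125 and 133 CPM in the knockdown replicates, against 131, 133 and 133 CPM in the scrambled replicates. Knockdown replicates 1 and 2 were low, while knockdown replicate 3 reached the scrambled level, so the groups overlapped. BACH1 averaged 127 ± 5.30 CPM in knockdown cells and 132 ± 1.14 CPM in scrambled cells, with a log2 fold change of -0.06 ± 0.032 that did not pass the threshold. BACH1 has 3 promoter windows in the RefSeq table, and 1 of them carries TGAGTCA, the reverse complement of TGACTCA, 48 bases before its start. Of the summed BACH1 and BACH2 transcripts per length, BACH2 made up 4.11 ± 0.367% in knockdown cells and 5.46 ± 0.315% in scrambled cells (SD, n = 3 each). The share was lower in each knockdown replicate, at 4.22, 4.4 and 3.69%, than in any scrambled replicate, at 5.23, 5.33 and 5.82%.

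**Figure D1:**
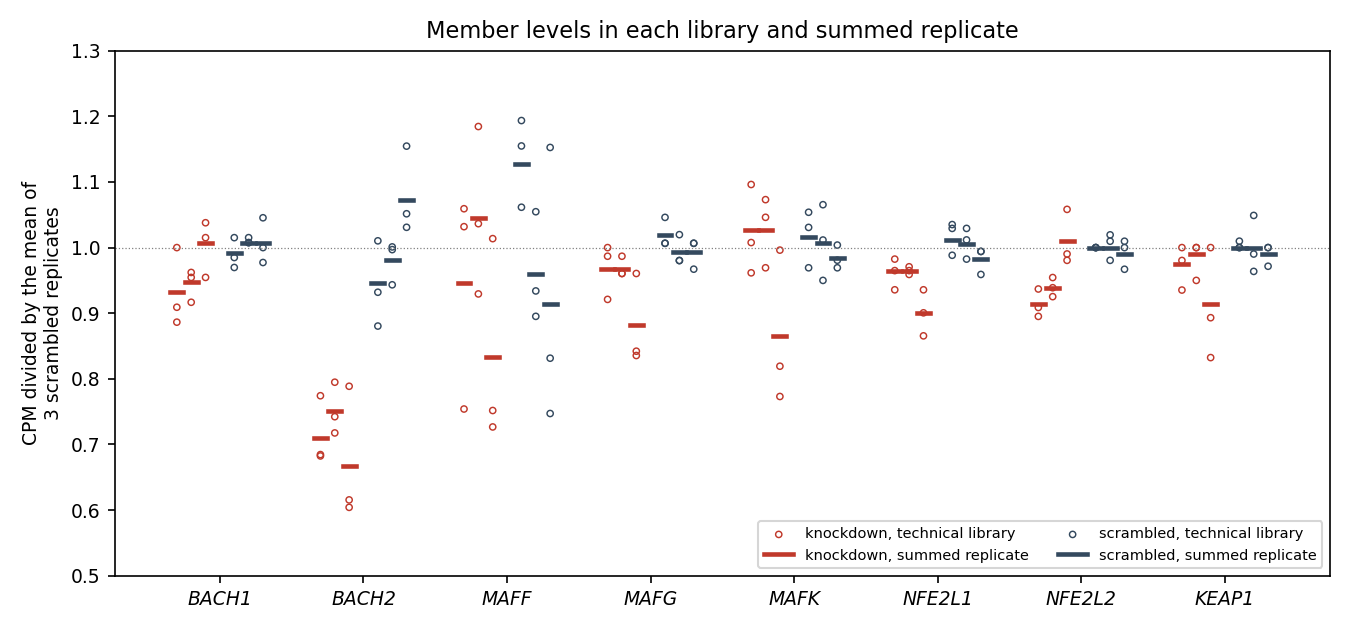
CPM of each gene divided by its mean over the 3 scrambled replicates (vertical axis, ratio), with knockdown values left of scrambled values for each gene; open circles are technical libraries and bars are summed replicates in the order 1 to 3. The BACH2 knockdown libraries, at 5.86 to 7.71 CPM, all sit below the scrambled libraries, at 8.54 to 11.2 CPM, while the library ranges of each other gene overlap.

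The small MAF proteins MAFF, MAFG and MAFK have a DNA-binding leucine zipper and no activation domain, and act as the obligate partners of the CNC factors. Per length, MAFG was the main small MAF transcript in K562 cells. It lies on chromosome 17 (ENSG00000197063, chr17:81918270-81927714, minus strand) and stood at 147, 147 and 134 CPM in the knockdown replicates, against 155, 151 and 151 CPM in the scrambled replicates. Each knockdown replicate lay below each scrambled replicate, with knockdown replicate 3 lowest. MAFG averaged 143 ± 7.81 CPM in knockdown cells and 152 ± 2.17 CPM in scrambled cells, with a log2 fold change of -0.09 ± 0.034 that did not pass the threshold. Of the summed small MAF transcripts per length, MAFG made up 81.0 ± 0.680% in knockdown cells and 81.5 ± 0.221% in scrambled cells, a difference within the spread of the knockdown replicates.

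MAFK, which pairs with NFE2 and BACH1 at globin control elements, lies on chromosome 7 (ENSG00000198517, chr7:1530714-1543043, plus strand). MAFK stood at 26.7, 26.7 and 22.5 CPM in the knockdown replicates, against 26.4, 26.2 and 25.6 CPM in the scrambled replicates. Knockdown replicates 1 and 2 were above all scrambled replicates and knockdown replicate 3 was below them. The means were 25.3 ± 2.44 CPM in knockdown cells and 26.0 ± 0.418 CPM in scrambled cells, and the log2 fold change of -0.04 ± 0.052 was smaller than its error. It turned positive, at 0.04, without knockdown replicate 3.

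MAFF, an inducible small MAF gene, lies on chromosome 22 (ENSG00000185022, chr22:38200767-38216511, plus strand). It stood at 4.15, 4.59 and 3.66 CPM in the knockdown replicates, against 4.95, 4.21 and 4.01 CPM in the scrambled replicates. The groups overlapped, and the counts behind them were 291, 294 and 237 in knockdown cells and 374, 297 and 270 in scrambled cells. The log2 fold change of -0.09 ± 0.094 did not pass the threshold, and it was 0.01 without scrambled replicate 1. One of the promoter windows of MAFF (GRCh38.p14, chr22:38201744-38202043, plus strand) is shown because it carries the same TGACGTCA element as that of BACH2. Capitals mark this element, 54 bases before the start, and GCGGGGTCA, a match to TGACNNNGC on the opposite strand, 122 bases before the start.
MAFF promoter: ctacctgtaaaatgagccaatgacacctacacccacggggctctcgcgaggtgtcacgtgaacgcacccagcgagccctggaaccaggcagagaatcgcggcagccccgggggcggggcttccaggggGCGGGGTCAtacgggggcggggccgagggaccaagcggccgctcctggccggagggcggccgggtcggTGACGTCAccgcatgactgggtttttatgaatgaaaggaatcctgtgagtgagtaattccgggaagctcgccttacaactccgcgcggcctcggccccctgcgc
This window had a GC content of 66.3% and 29 CpG dinucleotides. The element was added to the search after the windows had been seen, so its presence in both genes is a description. No link between the element and the levels or calls of BACH2 and MAFF was tested. The second MAFF window and the windows of MAFG, NFE2L1 and NFE2L2 held none of the 3 motifs. In all, 7 of the 8 genes, with 13 windows, were matched in the RefSeq table, and MAFK was not.

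NFE2L1 and NFE2L2 encode the activators of the set. NFE2L1 lies on chromosome 17 (ENSG00000082641, chr17:48048329-48061487, plus strand) and stood at 165, 165 and 154 CPM in the knockdown replicates, against 173, 172 and 168 CPM in the scrambled replicates. Every knockdown replicate was below every scrambled replicate. NFE2L1 averaged 161 ± 6.01 CPM in knockdown cells and 171 ± 2.92 CPM in scrambled cells, with a log2 fold change of -0.08 ± 0.030 that did not pass the threshold. It was called lower in 11 of the 16 alternative fits, DESeq2 and the GC correction among them. It was not called without knockdown replicate 2, without any one of the scrambled replicates or without scaling factors. NFE2L2 lies on chromosome 2 (ENSG00000116044, chr2:177227595-177392697, minus strand) and stood at 94.2, 96.7 and 104 CPM in the knockdown replicates, against 103, 103 and 102 CPM in the scrambled replicates. Knockdown replicates 1 and 2 were low and knockdown replicate 3 was the highest of all 6 samples. The log2 fold change of NFE2L2 was -0.06 ± 0.035, with means of 98.5 ± 5.36 CPM in knockdown cells and 103 ± 0.423 CPM in scrambled cells, and did not pass the threshold.

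KEAP1, the redox-sensing inhibitor of NRF2, lies on chromosome 19 (ENSG00000079999, chr19:10486120-10503741, minus strand). KEAP1 stood at 99.4, 101 and 93.2 CPM in the knockdown replicates, against 102, 102 and 101 CPM in the scrambled replicates. Knockdown replicate 2 lay just below the lowest scrambled replicate, so the groups did not overlap in CPM, and knockdown replicate 3 was the lowest. KEAP1 averaged 97.7 ± 3.94 CPM in knockdown cells and 102 ± 0.538 CPM in scrambled cells, with a log2 fold change of -0.06 ± 0.033 that did not pass the threshold. One of its promoter windows holds TGACNNNGC at 2 places, as TGACACGGC 54 bases before the start and as GCTTAGTCA, on the opposite strand, 31 bases before it.

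All 8 fold changes were below 0, here and under the other scaling factors tried, against 49.2% of all tested genes here. Those of MAFF and MAFK turned positive when single replicates or libraries were removed. In CPM, the groups of 3 did not overlap for BACH2, MAFG, NFE2L1 and KEAP1, 4 of 8, against 34.6% of all tested genes. With counts divided by gene length and each sample then set to the same total, in place of the TMM scaling, the KEAP1 groups overlapped. A gene's length is the same in every sample, so this change came with the rescaling of the samples. Of the 8, 1 was called lower and 0 were called higher in edgeR. At an unadjusted p below 0.05 these counts were 3 and 0, where 14.2% of all tested genes were lower and 17.0% higher. DESeq2 called 2 lower and 0 higher, where it called 7.18% of all tested genes lower and 8.90% higher. Apart from BACH2, the knockdown means in CPM differed from the scrambled means by -6.07% to -2.87%.

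In the genes other than BACH2, knockdown replicate 3 stood apart from knockdown replicates 1 and 2, and the direction differed with transcript GC content. Relative to the scrambled mean, knockdown replicate 3 of BACH1 (transcript GC content 38.6%) was at 0.006 on the log2 scale, against -0.105 and -0.087 in knockdown replicates 1 and 2. MAFK, the most GC-rich transcript of the set at 63.39%, showed the opposite order, with -0.21 in knockdown replicate 3 and 0.04 and 0.04 in knockdown replicates 1 and 2. The genes of higher GC content, NFE2L1, MAFG, KEAP1, MAFF and MAFK, were each lowest in knockdown replicate 3, while BACH1 and NFE2L2, of lower GC content, were each highest there among the knockdown replicates. BACH2, between them at a GC content of 47.21%, was also lowest in knockdown replicate 3. Its deviations, all well below 0, were -0.495, -0.414 and -0.585 in knockdown replicates 1, 2 and 3.

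A GC trend ran through all genes in this replicate. In knockdown replicate 3 the median deviation from the gene's mean over all samples was 0.070 on the log2 scale in the decile of genes lowest in GC content and -0.064 in the highest decile. The highest decile stood at 0.052 and 0.058 in knockdown replicates 1 and 2, and between -0.027 and 0.004 in the scrambled replicates. The low values of MAFK and MAFG came from 2 technical libraries of knockdown replicate 3, numbered 3_2 and 3_3. MAFK stood at 21.3 and 20.1 CPM in these and at 25.9 CPM in library 3_1, and MAFG at 128 and 127 CPM against 146 CPM. The part of base composition in the differences was not tested beyond the fits that follow.

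**Figure D2:**
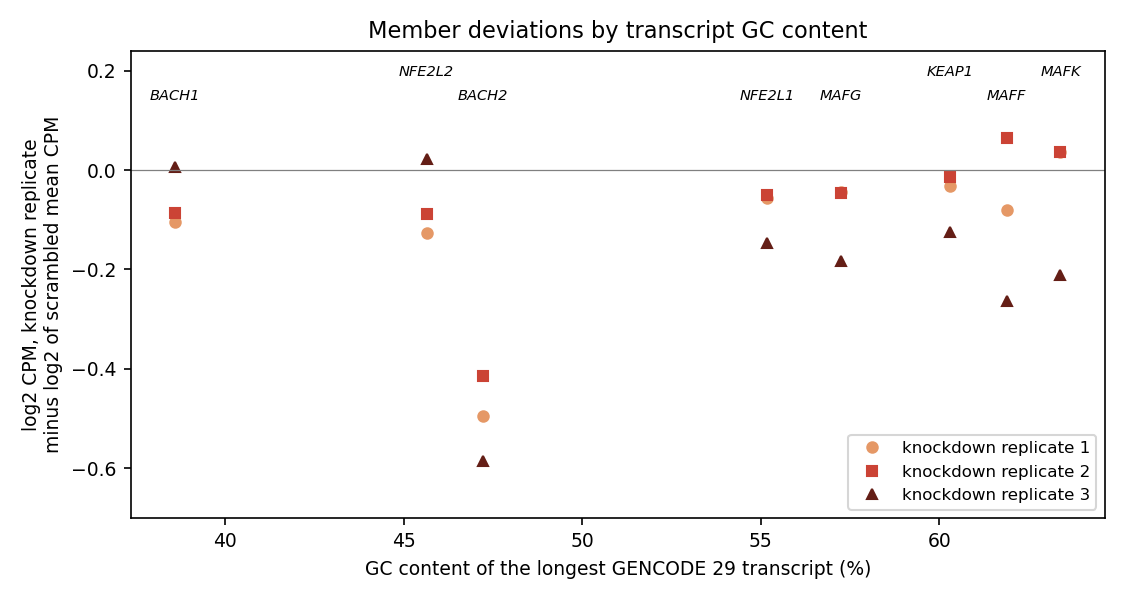
Log2 CPM of each knockdown replicate minus the log2 of the scrambled mean (vertical axis) against the GC content of the gene's longest annotated transcript in percent (horizontal axis), with one symbol for each knockdown replicate. Replicate 3 lies above replicates 1 and 2 for BACH1 and NFE2L2 and below them for the other genes, and BACH2 lies far below 0 in all 3 replicates.

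With counts corrected for GC content, 6 of the 8 genes were called lower, namely BACH1, BACH2, MAFG, NFE2L1, NFE2L2 and KEAP1, where 16.7% of all tested genes were called lower and 14.8% higher. Without knockdown libraries 3_2 and 3_3, 5 were called lower, namely BACH1, BACH2, MAFG, NFE2L1 and NFE2L2, where 15.5% of all tested genes were called lower and 16.5% higher. The calls other than BACH2 had small fold changes, from -0.06 to -0.10 with the GC correction and from -0.05 to -0.09 without the libraries. BACH2 stood at -0.49 in both. MAFK turned to 0.03 without these libraries, and KEAP1 moved to -0.02.

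**Figure D3:**
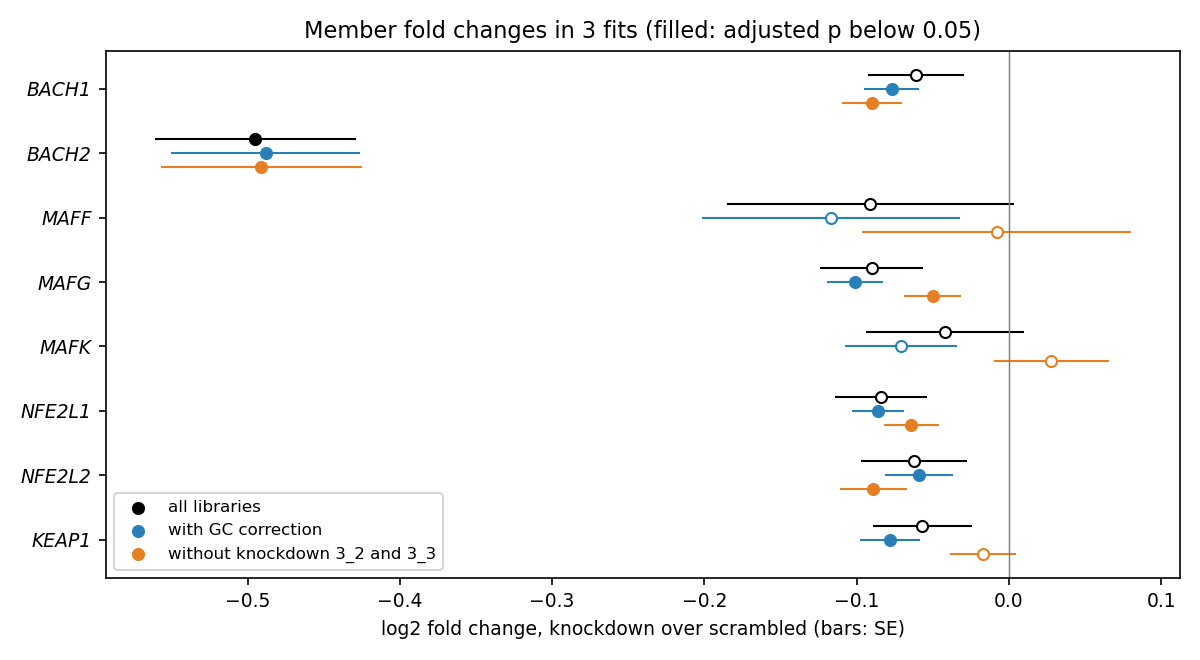
Log2 fold change of knockdown over scrambled (horizontal axis, bars are SE) for each gene in the fit of all libraries, the fit with GC correction and the fit without knockdown libraries 3_2 and 3_3; filled symbols passed an adjusted p of 0.05. BACH2 sits near -0.49 in all 3 fits, and each other gene lies between -0.12 and 0.03.

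Per length, the set fell into an abundant and a scarce group. TPM scales counts by length, here from the union of annotated exons, and then sets each sample to the same total without TMM scaling. NFE2L1 stood at 67.0 ± 0.951 TPM in knockdown cells and 69.4 ± 0.740 TPM in scrambled cells (SD, n = 3 each, here and below). MAFG followed at 66.1 ± 2.11 TPM in knockdown cells and 68.8 ± 0.152 TPM in scrambled cells, and its replicates overlapped those of NFE2L1 in scrambled cells. KEAP1 stood at 62.8 ± 1.11 TPM in knockdown cells and 63.8 ± 0.602 TPM in scrambled cells. These genes formed the top of the order. The KEAP1 groups overlapped in TPM, unlike in CPM. They stood at 63.1, 63.7 and 61.6 TPM in the knockdown replicates and 63.1, 64.2 and 64.2 TPM in the scrambled replicates. NFE2L2, at 39.9 ± 3.11 TPM in knockdown cells and 40.6 ± 0.524 TPM in scrambled cells, overlapped BACH1, at 39.8 ± 2.61 TPM in knockdown cells and 40.5 ± 0.893 TPM in scrambled cells. MAFK was lower, at 13.7 ± 1.02 TPM in knockdown cells and 13.8 ± 0.122 TPM in scrambled cells.

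BACH2 and MAFF were the scarce genes. BACH2 had 1.68, 1.77 and 1.64 TPM in the knockdown replicates, against 2.18, 2.31 and 2.54 TPM in the scrambled replicates. MAFF had 1.77, 1.95 and 1.62 TPM in the knockdown replicates, against 2.05, 1.78 and 1.71 TPM in the scrambled replicates. BACH2 thus lay above MAFF without overlap in scrambled cells, while the replicates of the pair overlapped in knockdown cells. The most abundant gene exceeded the least abundant one 37.6-fold in scrambled cells. The order depended on the length used. With the longest transcript, NFE2L2 led at 69.4 TPM in knockdown cells and 70.9 TPM in scrambled cells, and BACH2 was last at 1.51 TPM in knockdown cells and 2.10 TPM in scrambled cells.

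Summed over partners, the small MAF transcripts came to 83.5, 83.5 and 77.8 TPM in the knockdown replicates, against 84.6, 84.3 and 84.3 TPM in the scrambled replicates. The sum was lowest in knockdown replicate 3. NFE2L2 made up 37.3 ± 2.13% of NFE2L1 and NFE2L2 transcripts in knockdown cells and 36.9 ± 0.317% in scrambled cells, a difference within the spread of the knockdown replicates.

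**Figure D4:**
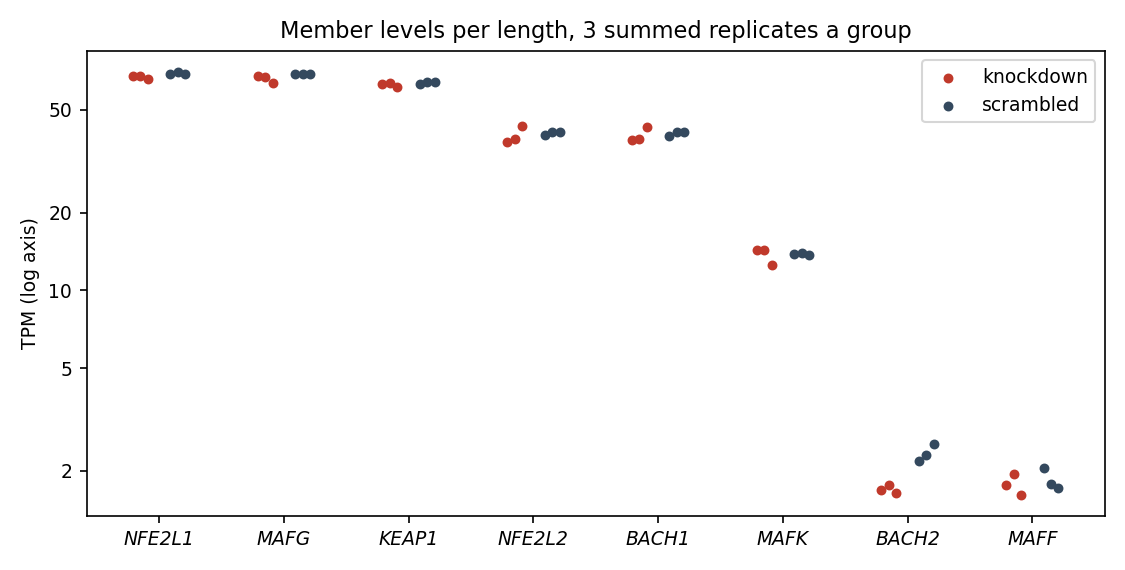
Level of each gene in TPM (vertical log axis) in the 3 knockdown replicates, left, and the 3 scrambled replicates, right, with genes ordered by their scrambled mean. NFE2L1, MAFG and KEAP1 lie between 61.6 and 70.2 TPM, and BACH2 and MAFF between 1.62 and 2.54 TPM.

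Several of the 8 genes share exon bases with another annotated gene, and the strand setting of the counting is not given in the sources used here. NFE2L2 shares 54 bases with AGPS on the opposite strand. AGPS was called higher, at 158 ± 7.42 CPM in knockdown cells and 147 ± 3.50 CPM in scrambled cells. NFE2L2 also shares 1054 bases on its own strand with AC019080.1 and 190 bases with the antisense gene AC079305.1. Neither of these is analysed here, and the NFE2L2 difference is uncertain because of all these overlaps. MAFG shares 105 bases on its own strand with SIRT7, a gene at 36.0 ± 0.974 CPM in knockdown cells and 38.7 ± 1.41 CPM in scrambled cells. MAFK shares 809 bases with TMEM184A on the opposite strand, at 0.120 ± 0.0509 CPM in knockdown cells and 0.113 ± 0.0206 CPM in scrambled cells. BACH2 shares 396 bases with the antisense gene AL121787.1, which is not analysed here. How far this overlap enters the BACH2 counts is not known, so its difference carries that uncertainty too. MAFG and NFE2L1 also share 224 and 192 bases with antisense genes, and BACH1 shares 302 bases on its own strand with LINC00189.

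By profile over the 6 samples, the gene nearest to BACH2 was EPAS1, the hypoxia factor HIF-2 alpha. The candidates were 10340 tested genes that averaged 5 CPM or more, without clone, LOC and LINC symbols. Likeness was the root mean square difference of gene-centred log2 CPM, at 0.063 for EPAS1 and a median of 0.26 over all candidates. SNORD12C, a small nucleolar RNA, followed at 0.0675, ATF3, a stress-induced bZIP factor, at 0.0733, TCN1, a cobalamin-binding protein gene, at 0.0752 and SNPH, the syntaphilin gene, at 0.0762. EPAS1 stood at 29.7, 30.7 and 29.7 CPM in the knockdown replicates, against 39.5, 38.4 and 42.0 CPM in the scrambled replicates. ATF3 averaged 13.7 ± 0.253 CPM in knockdown cells and 18.7 ± 0.361 CPM in scrambled cells. The nearest other gene of the set, MAFG, had rank 1108, and the most distant ranked one, NFE2L2, had rank 3043. MAFF was below the minimum level and was not ranked. With 3 samples a group, nearness largely follows the group difference. The 5 nearest genes had log2 fold changes from -0.503 to -0.372, so their likeness describes the same contrast that proposed the set.

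The gene lists that follow were written with earlier results of these data known. Each is described by its counts and its median beside the median of 0.002 over all tested genes. The edgeR counts of each list stand beside 7.49% of all tested genes called lower and 11.1% called higher. Of the other CNC and MAF family genes, 5 of 6 were tested. NFE2L3, a CNC factor related to NFE2L1, rose to 19 ± 1.27 CPM in knockdown cells, against 17.0 ± 0.408 CPM in scrambled cells, with a log2 fold change of 0.16 ± 0.051 (SE, edgeR adjusted p = 0.0284). This call was lost without knockdown replicate 2 and without each scrambled replicate. No gene of this list was called lower in edgeR or DESeq2, and 0 had a lower value at an unadjusted p below 0.05. NFE2, the haematopoietic CNC subunit that pairs with MAFK at the globin locus, was looked at after its values were seen. It had 260, 259 and 238 CPM in the knockdown replicates, against 242, 238 and 233 CPM in the scrambled replicates. NFE2 did not pass the threshold in the fit as reported (edgeR adjusted p = 0.0507) or in DESeq2 (adjusted p = 0.072). It was called higher with the GC correction (edgeR adjusted p = 5.19e-05), where 14.8% of all tested genes were. The same held without knockdown libraries 3_2 and 3_3 (edgeR adjusted p = 1.3e-09), where 16.5% of all tested genes were called higher. The median log2 fold change of the list was -0.04.

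Genes of the KEAP1 ligase and of NRF2 turnover moved little. All 14 were tested, with 1 called higher and 1 called lower and a median log2 fold change of 0.01. SQSTM1 encodes p62, an autophagy receptor that sequesters KEAP1 and is itself an NRF2 target. SQSTM1 stood at 203, 205 and 195 CPM in the knockdown replicates, against 224, 224 and 217 CPM in the scrambled replicates. It fell by 0.14 on the log2 scale (SE 0.0278, edgeR adjusted p = 0.00114), with no overlap, and kept its call in all 16 alternative fits. TRIM21, a ubiquitin ligase that modifies p62, rose to 13.8 ± 0.764 CPM in knockdown cells, against 11.8 ± 0.832 CPM in scrambled cells (log2 fold change 0.23, edgeR adjusted p = 0.00724), a call lost without scrambled replicate 3. CUL3, the scaffold of the ligase, stood at 80.8 ± 2.46 CPM in knockdown cells and 78.7 ± 0.852 CPM in scrambled cells and did not pass the threshold. CUL3 falls outside the naming rule and was chosen after its values were seen.

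Among coactivators and corepressors, 2 of 9 rose, and the median log2 fold change was -0.02. SMARCA4, also called BRG1, is the remodelling ATPase that NRF2 recruits at HMOX1. SMARCA4 had 361, 363 and 343 CPM in the knockdown replicates, against 226, 221 and 224 CPM in the scrambled replicates. This was the largest change in these lists of partners and targets among called genes, with a log2 fold change of 0.67 ± 0.027 (SE, edgeR adjusted p = 3.94e-14) and no overlap, and the call held in all 16 alternatives. BCOR, a corepressor, rose to 293 ± 6.65 CPM in knockdown cells, against 276 ± 1.22 CPM in scrambled cells (edgeR adjusted p = 0.0197), a call lost without knockdown replicates 1 or 2 or any scrambled replicate. None of this list was called lower in the edgeR fit as reported or in DESeq2, and 1 was lower at an unadjusted p below 0.05. With the GC correction 2 were called higher and 1 lower, where 14.8% of all tested genes were higher and 16.7% lower.

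Genes that process NRF1 included 2 of 8 that fell. OGT, which adds O-GlcNAc to nuclear and cytosolic proteins, stood at 347 ± 11.3 CPM in knockdown cells and 381 ± 3.36 CPM in scrambled cells (log2 fold change -0.13, edgeR adjusted p = 0.000945). NGLY1, the N-glycanase that removes the sugars of retrotranslocated NRF1, stood at 86.1 ± 1.56 CPM in knockdown cells and 93.7 ± 0.246 CPM in scrambled cells (log2 fold change -0.12, edgeR adjusted p = 0.00626). Both kept their calls in all 16 alternatives. None of the list was called higher in the edgeR fit as reported, in DESeq2 or at an unadjusted p below 0.05. The median log2 fold change was -0.03. With knockdown libraries 3_2 and 3_3 removed, 1 was called higher and 3 lower, where 16.5% of all tested genes were higher and 15.5% lower.

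Proteasome subunit genes are the best known targets of NRF1. Of 31 tested, 0 were called in edgeR in either direction, and the median log2 fold change was -0.03 with 24 below 0. At an unadjusted p below 0.05, 5 were lower and 0 higher, and DESeq2 called 2 lower. With the GC correction 11 were called lower, where 16.7% of all tested genes were, against 7.49% without it. When knockdown libraries 3_2 and 3_3 were removed 9 were called lower, where 15.5% of all tested genes were. PSMD14, the deubiquitinase of the lid, had the smallest p, at 173 ± 0.538 CPM in knockdown cells and 182 ± 1.17 CPM in scrambled cells, and did not pass the threshold (edgeR adjusted p = 0.0605).

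Of the NRF2 targets of the antioxidant response, 23 of 25 were tested, with 5 called lower and 1 called higher and a median log2 fold change of -0.004. Of all tested genes, 7.49% were called lower and 11.1% higher. SLC7A11, the cystine importer that feeds glutathione synthesis, had 41.9, 41.9 and 44.5 CPM in the knockdown replicates, against 52.2, 53.5 and 54.9 CPM in the scrambled replicates. SLC7A11 fell by 0.32 on the log2 scale (SE 0.0362, edgeR adjusted p = 1.37e-06) with no overlap. OSGIN1, an oxidative stress-induced growth inhibitor, fell to 3.79 ± 0.0808 CPM in knockdown cells, against 4.74 ± 0.0652 CPM in scrambled cells (log2 fold change -0.32, edgeR adjusted p = 0.00457). Both kept their calls in all 16 alternatives. The other genes called lower were GCLC, SRXN1 and AKR1C1, which are named to complete the count after their values were seen and lie between -0.16 and -0.09. AKR1C1 has the near-identical paralog AKR1C2, so its value is uncertain.

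NQO1, the quinone reductase often used to read NRF2 activity and chosen after its values were seen, stood at 46.1 ± 0.342 CPM in knockdown cells and 45.5 ± 0.917 CPM in scrambled cells and did not pass the threshold. With the GC correction, 10 of these targets were called lower and 4 higher, where 16.7% of all tested genes were lower and 14.8% higher. With knockdown libraries 3_2 and 3_3 removed, 10 were called lower and 5 higher, where 15.5% of all tested genes were lower and 16.5% higher.

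Among haem-responsive targets of BACH1, 10 of 11 were tested, with 2 called lower and a median log2 fold change of 0.02. FTH1, the ferritin heavy chain, fell to 1035 ± 12.8 CPM in knockdown cells, against 1089 ± 14.1 CPM in scrambled cells (log2 fold change -0.07, edgeR adjusted p = 0.023), and has processed copies that could share its reads. ABCB6, a porphyrin transporter, fell to 49.3 ± 2.26 CPM in knockdown cells, against 53.3 ± 1.15 CPM in scrambled cells (log2 fold change -0.11, edgeR adjusted p = 0.0358). Both calls were lost without knockdown replicate 2, without any scrambled replicate and without scaling factors, and that of FTH1 also without knockdown replicate 1. None was called higher in the edgeR fit as reported or in DESeq2, and 3 were higher at an unadjusted p below 0.05. With the GC correction 3 were called higher and 2 lower, where 14.8% of all tested genes were higher and 16.7% lower. With knockdown libraries 3_2 and 3_3 removed, 2 were called higher and 2 lower, where 16.5% of all tested genes were higher and 15.5% lower. HMOX1, the haem oxygenase that is the classical BACH1 target and was looked at after its values were seen, was hardly detected, at 0.0777 ± 0.0825 CPM in knockdown cells and 0.0555 ± 0.0207 CPM in scrambled cells, and was not tested.

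Of the lymphoid targets and partners of BACH2, 7 of 10 were tested, with 1 called higher and 1 called lower and a median log2 fold change of 0.04. TCF7, a T cell factor, had 12.3, 11.9 and 11.9 CPM in the knockdown replicates, against 8.57, 9.79 and 8.98 CPM in the scrambled replicates, and rose by 0.40 on the log2 scale (SE 0.0583, edgeR adjusted p = 3.96e-05). BCL6, a repressor that cooperates with BACH2 in B cells, fell to 8.64 ± 0.0933 CPM in knockdown cells, against 10.1 ± 0.679 CPM in scrambled cells (log2 fold change -0.22, edgeR adjusted p = 0.0118), a call lost without scrambled replicate 2. PRDM1, the plasma cell factor that BACH2 represses and that was looked at after its values were seen, stood at 1.99 ± 0.0644 CPM in knockdown cells and 1.93 ± 0.109 CPM in scrambled cells and did not pass the threshold.

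**Figure D5:**
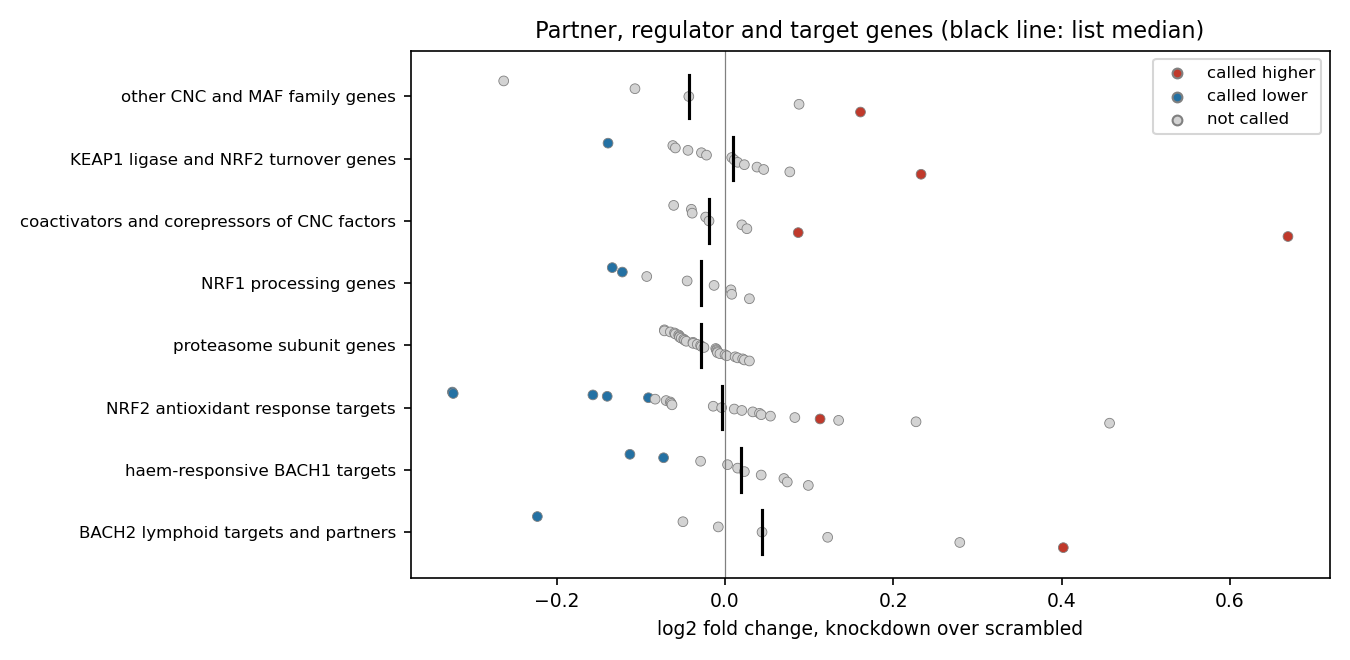
Log2 fold change of knockdown over scrambled (horizontal axis) for each tested gene of the 8 lists, with the list median as a black line and called genes coloured. SMARCA4, at 0.67, lies farthest to the right, and SLC7A11 and OSGIN1, at -0.32, farthest to the left of the called genes.

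Libraries held 19118533 to 29432699 counts, and summed replicates 63851576 to 76087774. PCMTD1, the host gene of the targeted circle, stood at 12.3 ± 0.515 CPM in knockdown cells and 20.6 ± 1.13 CPM in scrambled cells (edgeR adjusted p = 7.57e-10, and exact two-sided permutation p = 0.1, the smallest that 3 against 3 allows). Gene counts do not separate the circle from the linear transcripts. The labels call the cells lymphoblasts. Of 8 B and T cell genes, 3 were tested, their sum was 7.45 to 7.59 CPM in knockdown cells and 4.94 to 5.54 CPM in scrambled cells, MS4A1 was at 0 in every sample, and 2 were called higher. The 9 erythroid and megakaryocytic genes summed to 1704 to 1789 CPM in knockdown cells and 1532 to 1568 CPM in scrambled cells, with 4 higher and 1 lower. Of 6 granulocyte and monocyte genes, 3 were tested, with 1 higher and 1 lower, and their sum was 49.0 to 49.6 CPM in knockdown cells and 40.1 to 42.1 CPM in scrambled cells. Of all tested genes, edgeR called 7.49% lower and 11.1% higher. The part of these marker differences in the results above was not tested.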

How the data were processed

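RNA-seq libraries of K562 cells, 18 in all, were analysed. Per the labels' protocols they came from a directional kit after ribosomal RNA depletion. STAR, featureCounts, Trim Galore and the build GRCh38 are named in the submitters' processing notes, and their versions, the annotation and the strand setting were not given in the sources at hand. The authors deposited raw counts for 27781 gene symbols, and 23225 of these had at least 1 count. The design names 3 biological replicates a group with 3 technical libraries each. Libraries were summed by the first number in their titles, which is taken here as the biological one. No label names separate cultures, so p-values measure the spread between these samples, which may be largely technical.

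Summed counts were fitted under R 4.3.3 in edgeR 4.0.16, after filterByExpr and TMM scaling, with robust quasi-likelihood tests, adjusted by Benjamini-Hochberg over 15678 genes and called at an adjusted p below 0.05. CPM used TMM-scaled library sizes. TPM used GENCODE 29 lengths for 26170 genes. GC content was that of the longest transcript, known for 96.4% of tested genes, and the correction was a lowess fit of span 0.3. Gene-centred log2 CPM used a prior count of 2. Promoters came from RefSeq (GRCh38.p14). Alternatives were DESeq2 1.42.0, other scaling and filtering, a replicate block, the GC correction, other uses of the libraries and each replicate left out. Named were the 8 genes, PCMTD1, up to 3 called genes of a list or otherwise the one with the smallest p, and the 5 profiles nearest to BACH2. Exceptions are stated, and some genes under this rule are not reported here. Members and lists were chosen with earlier results of these data known. Tested on simulated counts, the fit recovered 63.5% of genes changed 1.2-fold and 94.9% of those changed 2-fold among 15678 genes, with 6 false calls.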

Additional observations from a re-analysis of the deposited data

How the results depend on the processing

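BACH2 was called lower in all 16 alternatives, with log2 fold changes from -0.54 to -0.44. The number of the 8 genes called lower is given with the share of all tested genes called lower in brackets. It was 1 (7.49%) in the fit as reported, 2 (8.18%) with RLE factors, 2 (7.18%) with DESeq2, 3 (5.74%) with no count filter, 3 (11.3%) with the replicate block, 6 (16.7%) with the GC correction, 6 (16.9%) with the GC correction and replicate block together, 4 (14.7%) with libraries entered singly, 6 (15.2%) with libraries summed by the second number and 5 (15.5%) with knockdown libraries 3_2 and 3_3 removed. It ran from 1 to 4 with each replicate left out, and was 3 (6.44%) without knockdown replicate 1 and 4 (14.3%) without knockdown replicate 3. The genes called over the whole table, 2920 as reported, numbered 4940 with the GC correction, 4960 with the block added, 4978 by the second number and 5015 without the 2 libraries, and 1755 to 4762 with each replicate left out, highest without knockdown replicate 3. The replicate block alone gave 3985. Same-numbered replicates had deviations correlated at 0.030, 0.011 and 0.011, so the numbers were not taken as pairs. MAFF ran from -0.171 to 0.006, above 0 without scrambled replicate 1, and MAFK from -0.084 to 0.036, above 0 without knockdown replicate 3, with each replicate left out, and MAFK was 0.028 without the 2 libraries. The cause was not tested. Of the calls taken over the whole table, 59.8% were higher, against 47.0% with the GC correction. The variance between replicates was, in the median over genes, 1.29 times that between technical libraries of a replicate, and 0.875 times without libraries 3_2 and 3_3. Apart from BACH2, the genes differed by less than 1.2-fold, the smallest change in the test on simulated counts. Of genes changed 1.2-fold, 63.5% were recovered there, and the recovery of smaller changes was not simulated.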
